A study of Mus musculus with 2 samples.

Results

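The peaks described here are the *Meg3* ChIRP-seq peaks that lie in L1Md_T elements. ChIRP pulls down an RNA with biotinylated antisense probes and sequences the DNA that comes with it, and *Meg3* is an imprinted long non-coding RNA. A peak was taken when the annotation in its list names the repeat L1Md_T, and no measured strength entered this choice. This gave 839 of 2763 peaks, of which 503 of 1554 were in the list of β-actin knockout (KO) mouse embryonic fibroblasts and 336 of 1209 in that of wild-type (WT) fibroblasts. The study asked whether the association of *Meg3* with the genome changes when β-actin is lost. The KO cells came from a β-actin KO that is lethal in embryos and carry raised α-smooth muscle actin, and no treatment is named for either cell line. Each genotype has 1 list, called after 4 libraries (replicates of an odd and an even probe pool) had been merged, so no spread between cultures can be given. Every peak carries a score of 1, and neither the height of a peak nor the depth behind it is known. No L1Md_T peak of one list overlapped one of the other. The paper also reports peaks common to both genotypes, so shared peaks may be missing from these lists. The lack of overlap thus does not show that the genotypes differ in place.

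L1 elements are retrotransposons that copy themselves through an RNA into new places of the genome. A full element has a 5′ region that acts as its promoter, an ORF1 that encodes an RNA-binding protein, an ORF2 that encodes an endonuclease and reverse transcriptase, and a 3′ region. L1Md_T is among the youngest mouse L1 subfamilies, with many nearly identical copies, and its 5′ region is built of tandem repeats called monomers. Short reads from such copies can often be placed equally well at many sites, so a peak in an L1Md_T element gives a place that the aligner chose and not necessarily the copy that the DNA came from.

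To show how alike the sequences under these peaks are, every peak was aligned to 1 intact element at chr1:137338843-137345503 (mm10, minus strand), which is 6661 bp long with an ORF1 of 371 codons and an ORF2 of 1281 codons. The base of this element covered by most peaks lay in ORF2, at position 4127 from its 5′ end, under 81 of the 813 peaks that aligned. The stretch from position 4066 to 4125 is given here from the element, from the first KO and the first WT peak that cover it on chromosome 1, and from a KO peak near *Cyp4b1* on chromosome 4, with capitals marking bases that differ from the element.
Element: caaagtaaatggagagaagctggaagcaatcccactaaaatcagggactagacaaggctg
KO peak chr1:11617218-11617514: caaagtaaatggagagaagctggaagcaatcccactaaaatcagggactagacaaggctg
WT peak chr1:21197399-21198143: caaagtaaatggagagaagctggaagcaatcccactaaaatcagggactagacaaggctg
KO peak chr4:115670619-115670831: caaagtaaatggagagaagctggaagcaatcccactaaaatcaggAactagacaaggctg
The KO and WT peaks held the same bases, while the *Cyp4b1* peak differed at 1 base. Every stretch of 100 bases (100-mer) in a peak was counted in the genome. The median over the peak was 6510.5 copies for the KO peak on chromosome 1, 2135 for the WT peak and 1 for the *Cyp4b1* peak.

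Stretches of 30 bases that many of these peaks share came mainly from ORF2, which is why the following 3 are shown.
ORF2, position 4066: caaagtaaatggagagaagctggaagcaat
ORF2, position 5396: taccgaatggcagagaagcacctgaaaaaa
5′ region, position 622: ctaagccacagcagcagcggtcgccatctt
The stretch at position 4066 lay in 46 KO and 25 WT L1Md_T peaks, and also in 15 KO and 13 WT peaks of L1Md_A, another young subfamily. The stretch at position 5396 lay in 35 KO and 22 WT L1Md_T peaks, but in 0 KO and 1 WT L1Md_A peaks. The stretch of the 5′ region lay in 44 KO and 9 WT L1Md_T peaks and in no L1Md_A peak of either list. Only 14 KO and 6 WT peaks aligned over position 622 itself. Most of the 44 KO peaks thus hold this stretch without being aligned there, and its count does not belong to that position alone. These stretches occurred 10293, 11622 and 5772 times in the genome. They are 3 of the 6 most shared stretches, picked to show both regions, so their counts are a description. The other 3 lie in ORF2, at positions 3153, 3453 and 4908, and each occurred in both subfamilies, with 12 to 20 KO and 8 or 9 WT L1Md_A peaks.

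The probes had little sequence in common with the element. The longest run of bases that any of the 16 probes shared with either strand of the element was 10, in capitals in the probe Meg3-2.
Meg3-2: agTTGCTCTGTAtggtagtg
The longest run between a peak and any probe averaged 8.05 ± 0.771 bases (SD over 503 peaks) in KO L1Md_T peaks and 8.06 ± 0.799 (SD over 336 peaks) in WT. In L1Md_A peaks it averaged 8.11 bases in KO and 8.03 in WT. These 4 means differed by less than 1 SD.

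L1Md_T peaks lay mostly on 4 of the 20 chromosomes that hold peaks. Chromosome 1 held 199 KO and 150 WT peaks, chromosome 10 held 104 and 57, chromosome 11 held 49 and 38, and chromosome 12 held 50 and 35. Together these chromosomes held 402 of 503 KO peaks (79.9%, Wilson 95% interval 76.2 to 83.2) and 280 of 336 WT peaks (83.3%, 79 to 86.9). The shares of the lists did not pass the test (Fisher's exact test, two-sided, adjusted p = 0.454). L1Md_A peaks had nearly the same shares, 75.4% in KO and 80.5% in WT, while of the peaks outside L1 elements 18.4% in KO and 12.5% in WT lay there. Both lists thus had their L1Md_T peaks on the same chromosomes. Chromosome 6 held 11 KO peaks and chromosome 18 held 3, and neither held a WT peak, where 0 of 336 allows a share of up to 0.893%.

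**Figure D1:**
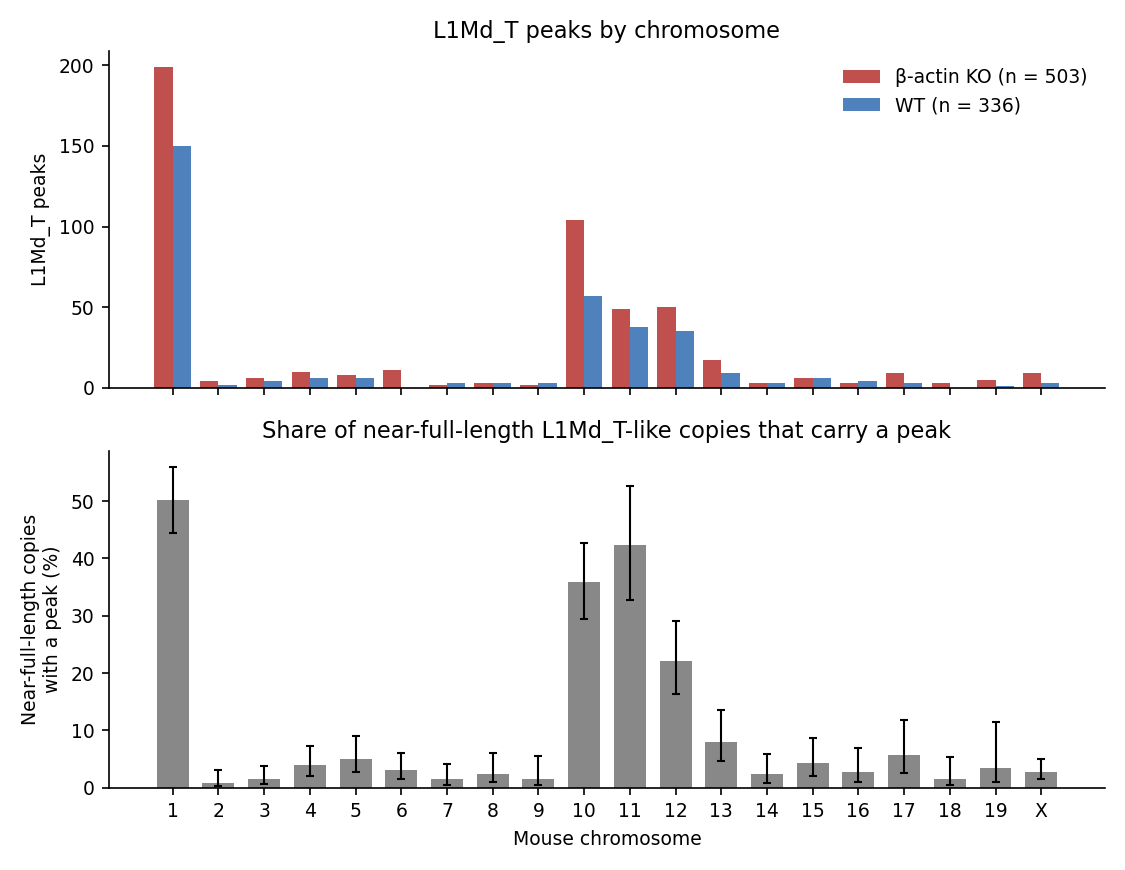
L1Md_T peaks in the KO and WT lists by mouse chromosome (upper bars, counts) and the share of near-full-length copies of the element that carry a peak of either list (lower bars, percent, with Wilson 95% intervals). Chromosomes 1, 10, 11 and 12 stand above the other 16 in both panels, with 50.2, 35.9, 42.4 and 22.1% of copies carrying a peak.

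The number of L1Md_T-like copies on a chromosome did not follow this distribution. Near-full-length copies, here at least 6000 bp of the element at 90% identity or more, numbered 3696, and 734 of them (19.9%) lay on chromosomes 1, 10, 11 and 12. Of these 734 copies 287 carried a peak (39.1%, Wilson 95% interval 35.6 to 42.7), against 89 of 2962 on the other 16 chromosomes (3%, 2.45 to 3.68). The X chromosome had the most copies, 364, and 10 of them carried a peak. Among copies at least 99% identical to the element, 231 of 381 carried a peak on the 4 chromosomes and 68 of 1468 elsewhere. The difference between chromosomes was thus also present among the copies most like the element. The median identity to the element was 99.41% for copies with a peak and 96.88% for copies without one. Copies were taken without regard to their subfamily name, and only L1Md_T peaks were counted on them. Copies of other subfamilies can thus count as without a peak, so part of this gap can follow from the definitions.

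L1Md_T peaks on the other 16 chromosomes lay in less repeated sequence. On chromosomes 1, 10, 11 and 12 the median 100-mer of a peak had a median of 2228.5 genome copies in KO and 2234 in WT. On the other chromosomes it had 330 in the 101 KO peaks and 64.5 in the 56 WT peaks. A median 100-mer with 10 copies or fewer was found in 9 of 402 KO and 2 of 280 WT peaks on the 4 chromosomes, and in 26 of 101 KO and 19 of 56 WT peaks elsewhere. Of the aligned peaks, 56.1% in KO and 59.4% in WT were identical to the element over the aligned bases on the 4 chromosomes, and 3.23% and 6.67% elsewhere. In the whole lists, 98% of KO and 96.7% of WT L1Md_T peaks had a median 100-mer that occurs more than once (Fisher's exact test, adjusted p = 0.454). The part that read placement among identical copies has in the chromosome pattern was not tested.

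Within the element, most peaks lay in ORF2. At least 80% of its bases aligned to the element in 492 KO and 321 WT peaks. ORF2, which is 57.7% of the element, held the centre of 320 KO peaks (65%) and 206 WT peaks (64.2%). ORF1 held 76 KO peaks (15.4%) and 56 WT peaks (17.4%). In the 3′ region lay 42 KO peaks (8.54%) and 39 WT peaks (12.1%). The 5′ region held 52 KO peaks (10.6%, Wilson 95% interval 8.15 to 13.6) and 18 WT peaks (5.61%, 3.58 to 8.69), the largest ratio between the lists among these segments. The 4 segments did not pass the test between the lists, with adjusted p = 0.0593 for the 5′ region, 0.661 for ORF1, 0.822 for ORF2 and 0.285 for the 3′ region (Fisher's exact test, two-sided).

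**Figure D2:**
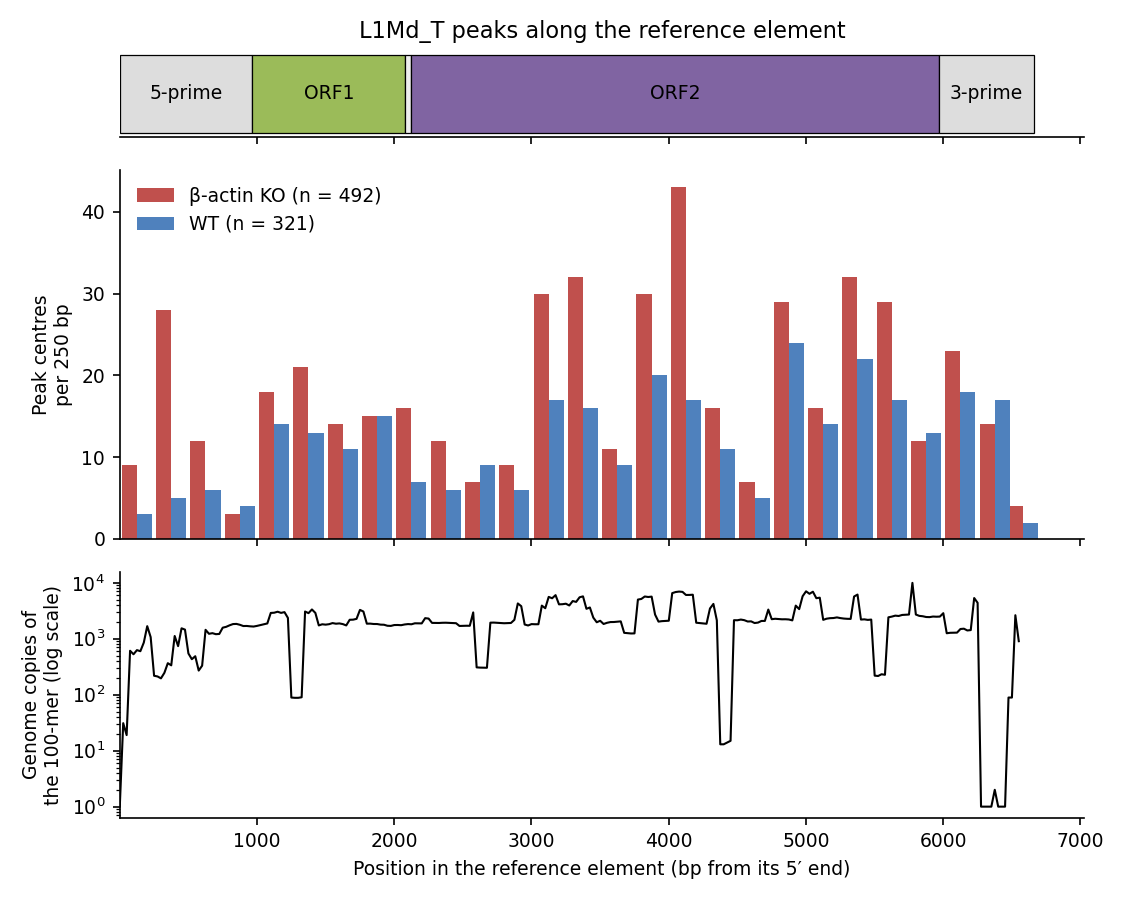
Centres of aligned KO and WT L1Md_T peaks per 250 bp of the reference element (middle), its segments (top) and the number of genome copies of the 100-mer starting at each position (bottom, log scale). The tallest bar is 43 KO centres between positions 4001 and 4250, where 100-mers had a median of 6074.5 copies.

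Peak centres were not spread evenly over ORF2. Between positions 4001 and 4250 lay 43 KO and 17 WT centres, and the 100-mers there had a median of 6074.5 genome copies. Between 4501 and 4750, still in ORF2, lay 7 KO and 5 WT centres, and the median was 2086 copies. Between 5251 and 5500 lay 32 KO and 22 WT centres, at a similar median of 2271 copies. In the 5′ region, 28 KO and 5 WT centres lay between 251 and 500, where the median was 415.5 copies. The segments were filled differently on the 2 sets of chromosomes. ORF2 held 71.7% of aligned KO and 67.8% of WT peaks on chromosomes 1, 10, 11 and 12, and 36.6% and 42.2% on the other 16. The 5′ region held 34 of 93 aligned KO peaks (36.6%) and 11 of 45 WT peaks (24.4%) on the other 16 chromosomes, against 18 of 399 (4.51%) and 7 of 276 (2.54%) on chromosomes 1, 10, 11 and 12. The 5′ region thus held a larger part of the peaks off those chromosomes in both lists, a comparison made after the values were seen.

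L1Md_T peaks were short relative to the element. The width had a median of 251 bp in KO (quartiles 195 and 326, range 157 to 742) and of 226 bp in WT (185.8 and 291.5, range 157 to 794). Peaks wider than 300 bp numbered 161 of 503 in KO (32%, Wilson 95% interval 28.1 to 36.2) and 78 of 336 in WT (23.2%, 19 to 28), a difference of 8.79 percentage points that did not pass the test (Fisher's exact test, two-sided, adjusted p = 0.0584). The lists differed most off the 4 chromosomes, where 33 of 101 KO peaks (32.7%) and 2 of 56 WT peaks (3.57%) were wider than 300 bp, and there the difference passed (Fisher's exact test, adjusted p = 8.85e-05). On the 4 chromosomes the shares were 31.8% and 27.1%. These chromosomes were picked on earlier results of both lists, and the adjustment does not cover the alternatives tried. L1Md_A peaks wider than 300 bp made up 27.7% in KO and 16.8% in WT, and the test between the subfamilies was not passed in either list (Fisher's exact test, adjusted p = 0.328 and 0.183). A cut at 250 bp gave 50.1% against 39.3% and passed (Fisher's exact test, adjusted p = 0.0282), while a cut at 400 bp gave 10.7% against 9.52% and did not (Fisher's exact test, adjusted p = 0.798). The depth of the merged libraries, on which peak width can depend, is unknown.

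**Figure D3:**
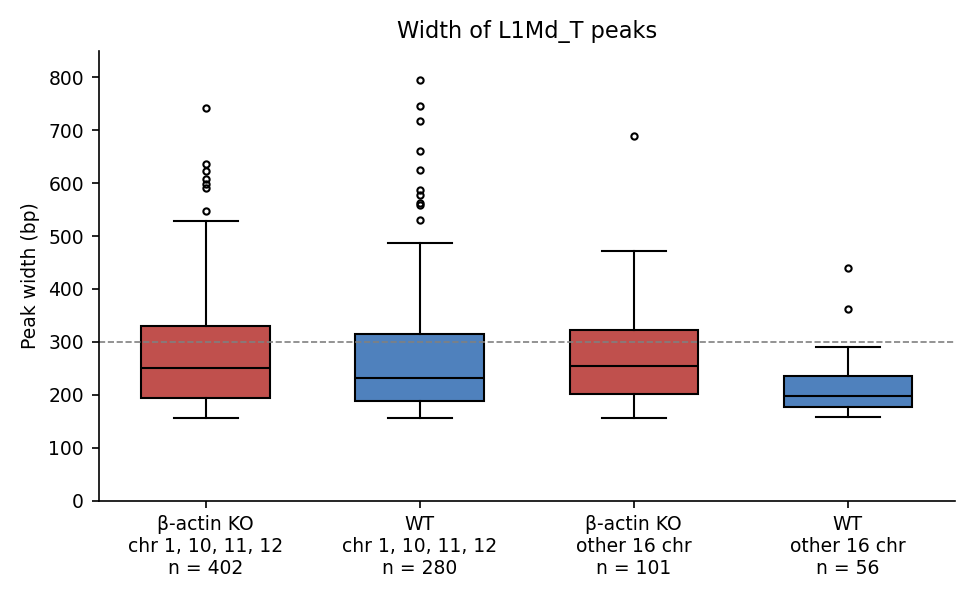
Width in bp of KO and WT L1Md_T peaks on chromosomes 1, 10, 11 and 12 and on the other 16 (boxes, quartiles and median; whiskers, 1.5 interquartile ranges; circles, peaks beyond them; dashed line, 300 bp). The 56 WT peaks on the other chromosomes have a median of 198.5 bp, against 232 bp for WT and 250 and 254 bp for the KO groups.

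The widest peaks were found in both lists. The widest KO peak, 742 bp across ORF1 at chr10:56031984-56032725, has *Msl3l2* as its nearest gene and lies in an intron of *Tbc1d32*. It was followed by 688 bp in the 5′ region near *Gm2516*, 636 bp in ORF1 near *Mgat4c*, a glycosyltransferase gene of the MGAT4 family, 623 bp in ORF2 in an intron of *Dner*, with *Pid1* as its nearest gene, and 608 bp near *Gtf3c3*, a subunit of the RNA polymerase III factor TFIIIC. The widest WT peaks all lay in ORF2. They had widths of 794 bp near *Defb41*, a defensin, 745 bp near *Tmem14a*, 717 bp near the sulfotransferase gene *Sult3a1*, 661 bp near *Scg2*, which encodes secretogranin II, and 625 bp near the serpin gene *Serpinb5*. The *Sult3a1*, *Tmem14a* and *Defb41* peaks each had a KO L1Md_T peak with the same nearest gene.

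Most L1Md_T peaks lay between genes and the rest in introns. No other category could occur, because peaks annotated otherwise have no repeat name and could not be taken. Introns held 127 of 503 KO peaks (25.2%, Wilson 95% interval 21.6 to 29.2) and 88 of 336 WT peaks (26.2%, 21.8 to 31.1; Fisher's exact test, adjusted p = 0.822). Of L1Md_A peaks, 32.7% in KO and 23.8% in WT lay in introns, and neither list passed the test between the subfamilies (Fisher's exact test, adjusted p = 0.132 and 0.599). The first intron held 28 of the KO and 19 of the WT intron peaks. Of all near-full-length copies, 27.2% had their centre inside a RefSeq gene, of those on chromosomes 1, 10, 11 and 12 it was 29.6%, and by the same measure 31.6% of KO and 33.3% of WT L1Md_T peaks did. The intervals of KO, 27.7 to 35.8, and WT, 28.5 to 38.5, hold the value for the copies on the 4 chromosomes. The 27.2% of all copies lies below both intervals, and the peaks are those of all chromosomes. These shares were compared without a test.

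Intron elements ran more often against the gene than along it. Of the intron peaks whose element and gene strands are known, 49 of 125 in KO (39.2%, Wilson 95% interval 31.1 to 48) and 30 of 83 in WT (36.1%, 26.6 to 46.9) lay in an element that runs along the gene. Both shares were below an even split (exact binomial test, two-sided, p = 0.0197 in KO and p = 0.0152 in WT), and several peaks can share an element. The difference between the lists did not pass the test (Fisher's exact test, adjusted p = 0.798). All near-full-length copies inside genes had a like share, 401 of 991 (40.5%, 37.5 to 43.6), which lies inside the intervals of both lists.

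Some genes held several L1Md_T peaks in their introns. *Adgrb3*, which encodes an adhesion G protein-coupled receptor of the brain, held 3 KO and 5 WT peaks in its introns. *Pkhd1*, the gene of fibrocystin, held 4 KO and 2 WT, all of which are listed under *4930486I03Rik*, whose transcription start site (TSS) is nearer. *Nckap5* held 4 KO and 0 WT, and *Brinp3*, *Dnm3*, a dynamin, and *Dnah7c*, an axonemal dynein, each held 3 KO and 1 WT. In all, 41 of 127 KO and 23 of 88 WT intron peaks lay in a gene whose symbol differs from that of the nearest TSS, renamed genes included. The genes below are those of the nearest TSS, as the lists name them.

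L1Md_T peaks lay far from TSSs. The absolute distance to the nearest TSS had a median of 123206 bp in KO and 109174 bp in WT, against 16588 and 15942 bp for peaks outside the L1Md subfamilies. Those other peaks include ones at a TSS, while a peak annotated to a promoter carries no repeat name, so the sets are not alike. Within 100 kb lay 219 of 503 KO peaks (43.5%) and 160 of 336 WT peaks (47.6%; Fisher's exact test, adjusted p = 0.454). Upstream of the TSS lay 46.1% of KO and 43.5% of WT peaks (Fisher's exact test, adjusted p = 0.661). The nearest to a TSS in KO were an intron peak of *Caps2* at 4084 bp, a peak 4287 bp upstream of *Boll*, which encodes an RNA-binding protein of germ cells, an intron peak of *Kifap3*, a kinesin-associated protein, at 4490 bp, and peaks 4558 and 4730 bp upstream of *Reg2* and of the olfactory receptor gene *Olfr777*. In WT they were peaks 1606 and 2076 bp upstream of *4930597A21Rik*, 2828 bp upstream of *Rab7b*, a small GTPase gene, an intron peak of *Rasgef1c* at 4047 bp and a peak 4507 bp upstream of *Sult1b1*. No L1Md_T peak lay within 1 kb of a TSS, but promoter peaks carry no repeat name and could not be taken as L1Md_T peaks.

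**Figure D4:**
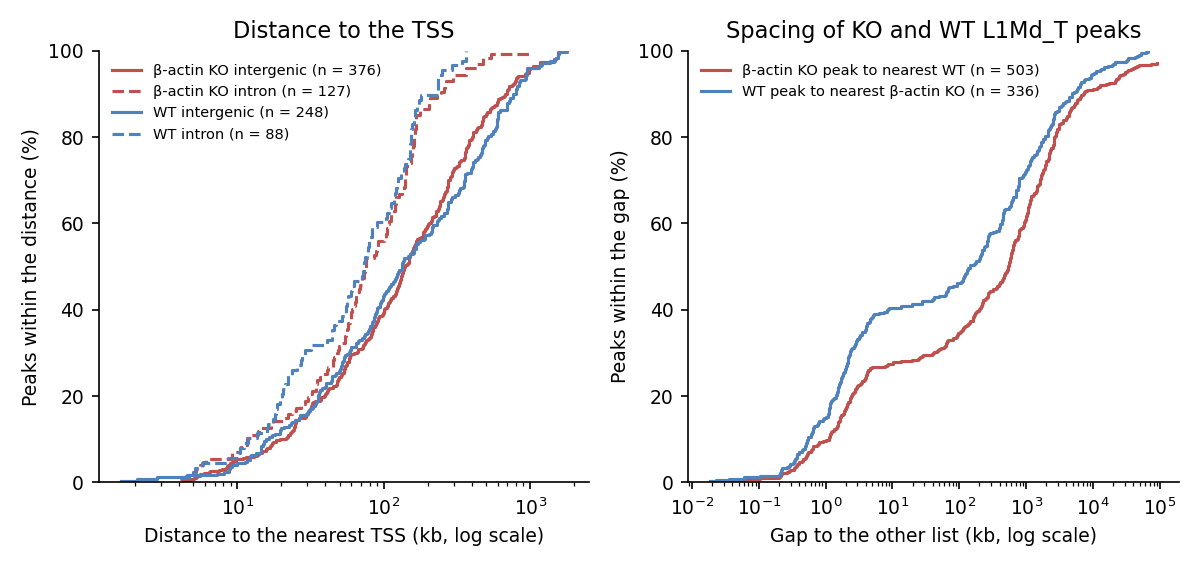
Left, share of KO and WT L1Md_T peaks, intergenic or in introns, within a given distance of the nearest TSS (kb, log scale). Right, share of the peaks of each list with a peak of the other list within a given gap (kb, log scale); both curves flatten after about 7 kb, at 26.8% of KO and 39.3% of WT peaks, and then rise again beyond 100 kb.

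Some KO and WT L1Md_T peaks stood on the same element without overlapping. A WT peak lay within 1 kb of 48 KO peaks (9.54%, Wilson 95% interval 7.27 to 12.4), within 7 kb, about the length of an element, of 135 (26.8%), and within 100 kb of 174 (34.6%). From the WT side the counts were 50, 132 and 155 of 336. Of the 135 KO peaks with a WT peak within 7 kb, 118 shared a near-full-length copy with it and 131 lay on chromosomes 1, 10, 11 or 12. The gap from a peak to the nearest of its own list was 1 kb or less for 67 KO and 61 WT peaks. No gap was 0, since no L1Md_T peaks overlapped, which between the lists may come from how they were made.

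The same copies of the element carried peaks of both lists in part. A KO peak was on 267 copies and a WT peak on 196, and 87 copies carried both, which is 32.6% of the former and 44.4% of the latter. Peaks of both lists crowd on the same chromosomes. On chromosome 1, 36.3% of all near-full-length copies carried a KO peak and 29.2% a WT peak. Sharing beyond this crowding was not tested. The largest number on 1 copy was 5, reached by 3 copies. The copy at chr11:64299339-64305998, near *Hs3st3a1*, a heparan sulfate 3-O-sulfotransferase gene, had 4 KO peaks and 1 WT peak. The copy at chr1:50329972-50336404 near *Tmeff2* had 1 KO and 4 WT peaks, and that at chr1:109034858-109041512 near the cadherin gene *Cdh7* had 0 KO and 5 WT peaks. *Tmeff2* and *Cdh7* were singled out after their values were seen.

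Most of the closest KO and WT peaks lay next to each other on 1 near-full-length copy. The smallest gap, 19 bp, lay between a KO peak at chr10:47801603-47801907 and a WT peak at chr10:47801927-47802254, with *Snord14c*, a small nucleolar RNA gene, as the nearest gene. Gaps of 23, 36, 61 and 103 bp followed, in an intron of *Srgap1* and near the GABA receptor gene *Gabrb2*, *Hs3st3a1* and *Gm5415*. The others of the 10 closest were near *Defb41*, *Plcxd3*, *Lrriq3*, *Agmo* and *Lyplal1*, with gaps of 202 to 219 bp. The pairs near *Lrriq3* and *Agmo* lay on no near-full-length copy, and the *Agmo* WT peak did not align to the element. Of the 48 KO peaks with a WT peak within 1 kb, 40 shared a near-full-length copy with it and all 48 the nearest gene. Of the 47 where both peaks aligned, 38 lay in the same segment. The KO peak was nearer the 5′ end of the element in 26 of these 47. The shared gene and segment follow largely from the limit of 1 kb, as TSS distances were mostly far larger and ORF2 spans 3846 bp.

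L1Md_T peaks were spread over 464 nearest genes, 336 in KO and 240 in WT. Of these, 112 were named in both lists, which is 33.3% of the KO and 46.7% of the WT genes. On chromosomes 1, 10, 11 and 12, where peaks of both lists crowd, lay 320 of the 464 genes. The same overlap over all peaks was not counted, so these shares allow no reading about L1Md_T peaks. A single peak was found at 292 of the 464 genes, and 26 had 5 or more. *Cntnap5a*, a neurexin-family cell adhesion gene, had the most, with 8 KO and 4 WT peaks, all intergenic and between 809689 and 1788920 bp from the TSS. *Brinp3* had 7 KO and 3 WT peaks, *D830032E09Rik* 6 and 3, *4930590L20Rik* 5 and 3 and *Gm5415* 3 and 5. *Rgs18*, a regulator of G-protein signalling, and *Snord14c* each had 5 and 2. *4930486I03Rik* had 4 and 2, *Adgrb3* 2 and 4, and *Actr3*, which encodes a subunit of the actin-nucleating Arp2/3 complex, 5 and 1. The *Actr3* peaks were all intergenic and lay 291727 to 466434 bp from its TSS. The last 3 of these 10 are among 10 genes with 6 peaks each and were taken in the order of their names; *Cdh7*, with 0 KO and 6 WT peaks, is among the others.

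**Figure D5:**
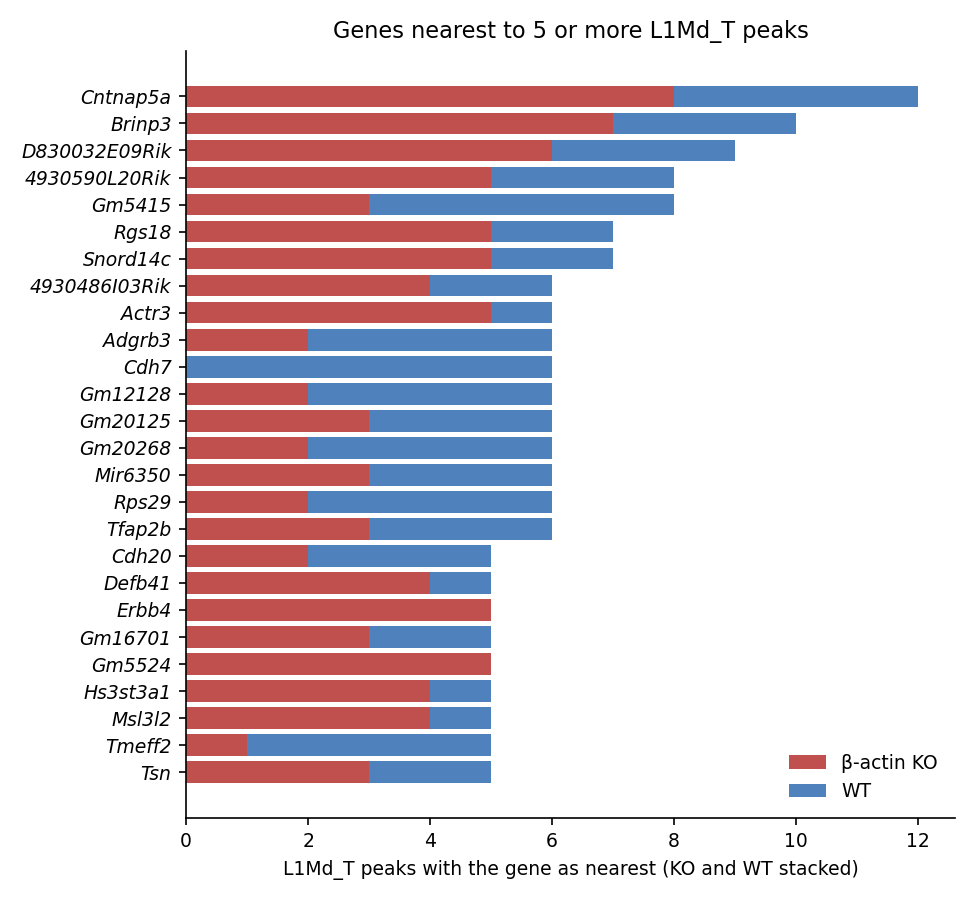
Number of KO and WT L1Md_T peaks (stacked) for each of the 26 genes that are nearest to 5 or more of them. *Cntnap5a* has the most with 12, *Erbb4* and *Gm5524* have KO peaks only (5 each), and *Cdh7* has WT peaks only (6).

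Few genes of any kind are nearest to an L1Md_T peak. Of 21900 protein-coding RefSeq genes, 1.11% were nearest to a KO peak, 0.813% to a WT peak and 1.56% to a peak of either list, and lists as short as the following allow no reading against these shares. Of 10 genes listed for chondroitin, heparan and dermatan sulfate synthesis, 1 had an L1Md_T peak, and 1 had a peak of any kind. Of 9 phospholipase genes, 1 had an L1Md_T peak and 2 a peak of any kind. The share of all genes nearest to a peak of any kind was not counted, so these counts have no measure beside them. The study named most of those genes from RNA-seq of WT, heterozygous and KO fibroblasts. *Hs3st3b1*, *Pld5* and *Plcl1* were taken up with *Meg3* peaks in view. The lists thus come from the same study and are no independent evidence. *Hs3st3b1*, a heparan sulfate 3-O-sulfotransferase gene, had a KO peak in the 5′ region of an element 274756 bp from the TSS and a WT peak in ORF2 272164 bp from it. *Plcl1*, a phospholipase C-like gene without known lipase activity, had 2 KO peaks and no WT peak, both in its first intron, at 71106 and 72966 bp. The WT peak near *Hs3st3b1* is given in the direction of the element, to show how it matches the element, with capitals marking a shared 30-base stretch at position 3153.
*Hs3st3b1*, WT, chr11:63649978-63650263 (plus strand): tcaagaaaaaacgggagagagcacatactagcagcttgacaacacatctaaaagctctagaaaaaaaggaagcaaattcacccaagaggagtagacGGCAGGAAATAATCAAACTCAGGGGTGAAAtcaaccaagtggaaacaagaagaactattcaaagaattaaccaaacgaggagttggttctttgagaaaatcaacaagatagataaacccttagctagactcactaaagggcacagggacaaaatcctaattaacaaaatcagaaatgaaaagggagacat
This peak and both KO peaks in *Plcl1* were identical to the element. The median 100-mer had 4166 genome copies in this peak, and 2546 and 2070.5 in the wider and the narrower *Plcl1* peak. Most 100-mers under these peaks thus do not single out their sites. The KO peak near *Hs3st3b1* was 97.55% identical to the element, with 140 copies.

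Of 30 genes for synapses and cell adhesion, 4 were nearest to a KO and 5 to a WT L1Md_T peak, and 10 to a KO and 6 to a WT peak of any kind. Without the share of all genes for peaks of any kind, the latter counts allow no reading about these genes. *Cntnap5a* and *Grik2*, a kainate receptor subunit, had peaks in both lists. *Erbb4*, a receptor tyrosine kinase, had 5 KO peaks and *Dpp10* 2, and neither had a WT peak. *Csmd3*, *Ctnna3* and *Ptprd* each had 1 WT and no KO peak. Of 14 chromatin genes, *Hdac2*, a histone deacetylase, was nearest to 1 WT peak at 152066 bp, which lies in an intron of *Hs3st5*, a heparan sulfate sulfotransferase gene, and the others were nearest to none. None of the 14 fibroblast genes, the 8 actin genes or the 6 genes of the *Meg3* locus was nearest to an L1Md_T peak of either list, a count that says little at the shares of all genes given above.

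The share of L1Md_T peaks in the whole list was 32.4% in KO (503 of 1554, Wilson 95% interval 30.1 to 34.7) and 27.8% in WT (336 of 1209, 25.3 to 30.4), a difference of 4.58 percentage points (Fisher's exact test, two-sided, adjusted p = 0.0584). Without chromosomes 1, 10, 11 and 12 the share was 12.7% of 796 KO peaks and 8.24% of 680 WT peaks, and the difference passed (Fisher's exact test, adjusted p = 0.0395). These tests take peaks as units and compare 2 pooled lists, not cultures. Of the 12 shares compared between the lists, 0 passed at an adjusted p under 0.05, and 3 had an unadjusted Fisher p under 0.05, those of L1Md_T in the list, of width and of the 5′ region.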

How the data were processed

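Chromatin of mouse embryonic fibroblasts was pulled down with *Meg3* probes. The authors used Trimmomatic for trimming, BWA for alignment to GRCm38 and Picard to drop duplicates. For each genotype they pooled 4 libraries, called peaks over input with MACS2, and added gene and repeat names with HOMER on mm10 (tool versions not given in the sources used here). Each deposited list holds other values, namely positions and distances to the TSS in bp, and a score, which is 1 for every peak. How reads with several equal placements were treated is not given in the sources used here.

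L1Md_T peaks were taken by their annotated repeat name. Sequence was read from GRCm38.p6, peaks and copies were placed on the element with BLAST+ 2.17.0, and 100-mers were counted over the autosomes and X, either strand. Gene strands came from RefSeq. Peak counts went into Fisher's exact tests (two-sided, scipy 1.17.1), adjusted by Benjamini-Hochberg over 12 shares between the lists and over 4 between L1Md_T and L1Md_A, with Wilson 95% intervals, which cover counting error only. Placement, tests and gaps were tested on simulated data. Depth per sample is unknown. The members, the gene lists and chromosomes 1, 10, 11 and 12 were chosen with earlier results of these data known. For each alternative, its p took the place of the main one in the adjustment, so the number of alternatives was not adjusted for. The genes named are the 10 with most L1Md_T peaks (ties by name), those of the 10 closest KO and WT pairs, of the 5 peaks nearest to a TSS and the 5 widest in each list, *Hs3st3b1*, *Plcl1*, and listed genes with a peak. Alternatives merged peaks within 1 kb, left out chromosomes 1, 10, 11 and 12, took all L1Md names, moved cuts, used 31-mers, a stricter alignment or a second reference copy.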

Additional observations from a re-analysis of the deposited data

How the results depend on the processing

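Of 46 alternatives tried on 17 results, 31 kept the direction and the side of the threshold. The L1Md_T share of the list (KO minus WT, 4.58 percentage points) passed the threshold when peaks within 1 kb were merged (4.92 points, Fisher's exact test, adjusted p = 0.0375), without chromosomes 1, 10, 11 and 12 (4.45, 0.0395) and with all L1Md names (6.64, 0.00667). The share wider than 300 bp (8.79 points) passed under the same alternatives (10.2, 29.1 and 9.58 points) and with a cut at 250 bp (10.8 points). The intron share turned to 0.0673 points when merged and 1.37 with all L1Md names, the share near a TSS to 1 point within 10 kb, and the strand share to -16 points without chromosomes 1, 10, 11 and 12. Without those chromosomes the ORF2 share turned to -5.66 points, an alternative chosen after seeing the data, as was merging for the segments, and the WT width difference between L1Md_T and L1Md_A to -4.76 points. No turned value passed the threshold, and the cause was not tested. KO peaks with a WT peak nearby rose from 48 within 1 kb to 135 within 7 kb and 174 within 100 kb, as wider gaps must. With 31-mers, all peaks of both lists had a repeated median. The lists keep no depth or height, so no peak can be ranked by strength. Leaving out a library was not possible, because each genotype has 1 pooled list.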

Other observations

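Some gene families were counted among the nearest genes of L1Md_T peaks and of the other peaks of the lists. Zinc finger genes with symbols that start with Zfp were nearest to 0 of 503 KO and 0 of 336 WT L1Md_T peaks, which allows shares of up to 0.596 and 0.893%, and to 35 KO (3.33%) and 20 WT (2.29%) of the other peaks. Vomeronasal receptor genes (Vmn1r and Vmn2r) were nearest to 3 KO and 0 WT L1Md_T peaks and to 28 and 20 of the others. Olfactory receptor genes (Olfr) went opposite ways in the lists, with 0.994% of KO L1Md_T against 2.09% of the other KO peaks, and 2.68% of WT L1Md_T against 1.49% of the other WT peaks. Predicted genes (Gm and a number) were nearest to 72 KO (14.3%) and 43 WT (12.8%) L1Md_T peaks and to 6.57% and 7.79% of the others. These shares were not tested. Chromosomes 1, 10, 11 and 12 held 79.9% of KO and 83.3% of WT L1Md_T peaks, but 18.4% and 12.5% of peaks outside L1 elements. The families were not counted by chromosome, so their shares cannot be told apart from this difference.

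When chromosome names are sorted as text, 1, 10, 11, 12 and 13 come first, and these were the 5 chromosomes with the highest share of near-full-length copies that carry a peak. Chromosome 13 had 8% (12 of 150 copies, Wilson 95% interval 4.64 to 13.5), with 17 KO and 9 WT peaks, and the next, chromosome 17, had 5.71% (6 of 105, 2.64 to 11.9). The intervals of these 2 overlap, and the order was noticed on the same values.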
